A study of Homo sapiens with 16 samples.

Results

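HCT116 and RKO, lines grown from human colon carcinomas, were compared with each other over every drug treatment of the study, to describe the genes that separate the lines whatever the drug. All 16 arrays of the series entered the comparison, 8 from HCT116 and 8 from RKO. They formed 8 pairs, each made of the HCT116 and the RKO array with the same treatment label. The labels were control, the drugs PJ-34, 5-aza-dC and TSA singly, the 3 pairs of drugs and all 3 drugs (joined by a slash, as in PJ-34/TSA), with 1 array per line and label. The drug 5-aza-dC, a nucleoside that traps DNA methyltransferases, was used at 0.5 µM, and the histone deacetylase inhibitor TSA at 150 nM. The dose of PJ-34, an inhibitor of poly(ADP-ribose) polymerases, was 3 µM in HCT116, while for RKO the methods of the study state 2 µM and its results state 3 µM. Cells were collected after 3 days, and the sources do not settle whether the arrays labelled control had received solvent. Each line is a single established culture grown without other cell types, so the differences below describe these cultures and not classes of colon cancer.

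HCT116 and RKO are both mismatch repair deficient colon carcinoma lines. HCT116 carries an activating mutation of the Wnt signalling gene CTNNB1 and grows as an epithelial sheet. RKO carries an activating BRAF mutation, is poorly differentiated, and is known for dense methylation of many promoters. In epithelial cells, keratins form the intermediate filaments, and cadherins, claudins and desmosomal proteins join neighbouring cells. Transcription factors such as ZEB1 bind E-box motifs in promoters of junction genes and lower their transcription when carcinoma cells lose epithelial features.

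The array, Affymetrix Human Genome U133 Plus 2.0, gives 1 signal intensity per probe set, a group of short probes for 1 transcript. The median signal was 160 to 210 on the HCT116 arrays and 152 to 202 on the RKO arrays, and the ratio of the 3′ to the 5′ probe set of the actin gene ACTB was 1.42 to 1.61 and 1.39 to 1.57. The same ratio for GAPDH was 0.834 to 0.902 in HCT116 and 0.891 to 1.02 in RKO. An array read 21.9% to 27.3% of its probe sets under 50. For the tests, signals under 50 were raised to this floor and log2 was taken. Where a line read under 50, the difference given is therefore measured against the floor and depends on it. Differences are HCT116 minus RKO on the log2 scale over the 8 pairs, a positive value means higher in HCT116, and adjusted p comes from limma with the treatment label as a block. Each signal range below gives the lowest and highest array with the median, n = 8 arrays per line. The 8 arrays of a line carry different treatments and are not separate cultures of 1 condition, so a p measures the spread between these arrays.

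The RKO arrays labelled PJ-34/5-aza-dC and PJ-34 both read against their labels. In RKO, 23 genes were at least 5-fold higher on the 5-aza-dC array than on the control and also on the 5-aza-dC/TSA array than on the TSA array. Of these, 21 of 23 were 5-fold above the control on the array labelled PJ-34, and 0 of 23 on the array labelled PJ-34/5-aza-dC. In HCT116, 32 genes met the same condition, of which 0 of 32 were 5-fold higher on the array labelled PJ-34 and 32 of 32 on the array labelled PJ-34/5-aza-dC. The labels were kept as deposited. The line difference is a mean over all pairs, so exchanging both RKO arrays would leave its value as it is. Without both pairs 15739 probe sets were called in place of 17922, and 15251 of them were called in the same direction as with all pairs and 0 in the opposite one. Of the 224 genes named by rule and called, 8 lost the call without both pairs (CD55, DKK4, FRZB, HBB, LAPTM5, RPL11, RPL18 and RPS14).

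The lines differed over a large part of the transcriptome. Of 42119 probe sets tested, 17922 (42.6%) differed at an adjusted p under 0.05. Counted by gene, with 1 probe set each, 8096 of 16647 genes (48.6%) differed, 4256 (25.6%) higher in HCT116 and 3840 (23.1%) higher in RKO. The HCT116 side held more of the large differences. At 4-fold or more, 916 genes were higher in HCT116 and 372 higher in RKO, and at 32-fold or more 133 and 43. Exactly 966 called genes (5.8% of those tested) were at least 2-fold higher in HCT116 in all 8 pairs and 530 (3.18%) at least 2-fold higher in RKO in all 8 pairs. All signals of the lines lay apart for 4231 genes (25.4%). These shares are the background against which counts of gene groups are read. The median difference over all genes was 0.05. In these bulk measurements, fewer cells that use a gene and less RNA of it per cell cannot be told apart.

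**Figure D1:**
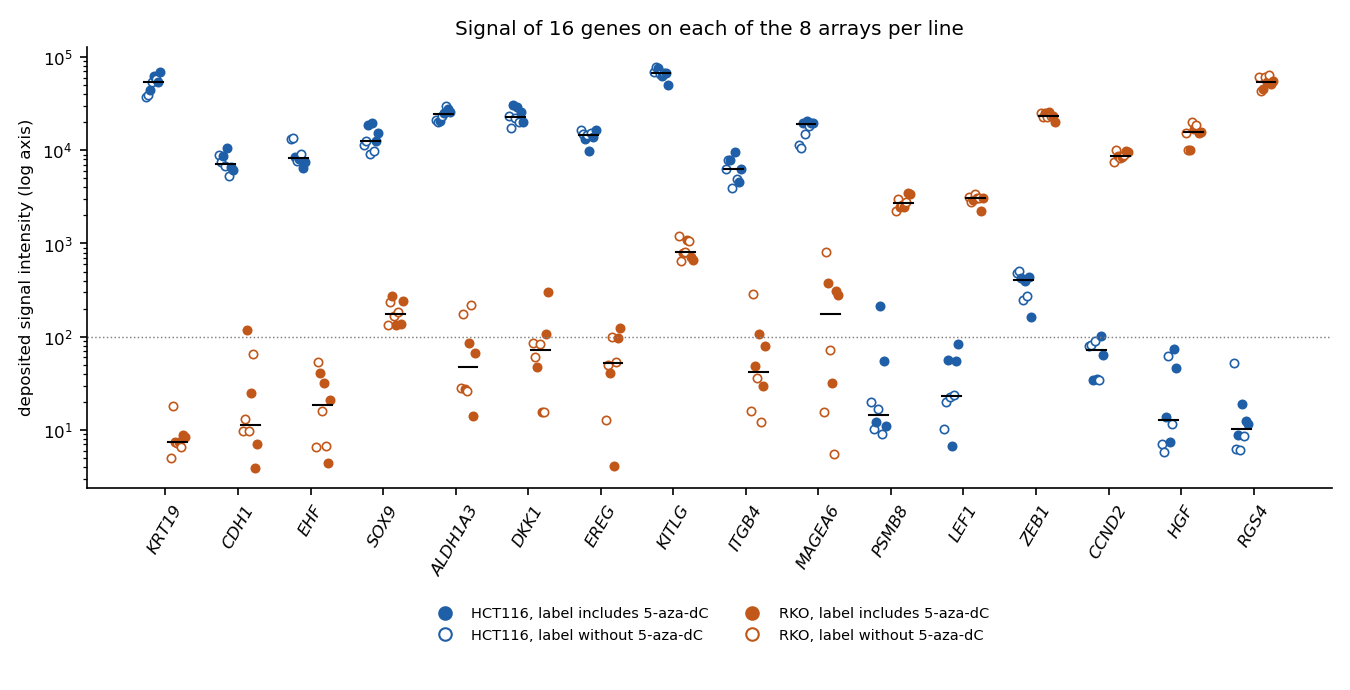
Deposited signal (log axis) of 16 genes on every array, HCT116 in blue and RKO in orange, filled where the label includes 5-aza-dC, with the median of each line as a bar and a dotted line at 100. The 8 HCT116 and 8 RKO signals lie apart for each of the 16 genes, and signals of different genes are not on a common scale.

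Epithelial filament and adhesion genes had list medians towards HCT116. Of 11 keratins tested, 10 were higher in HCT116 and none in RKO, with a median difference of 2.68. Of 41 epithelial junction and polarity genes, 35 were higher in HCT116 and 2 in RKO, with a median of 2.09 against 0.05 for all genes. The median of the junction genes was 1.86 to 2.80 in the 8 pairs taken singly, and that of the keratins 2.31 to 3.76, so the lean to HCT116 was present in every pair. The signals of 34 of the 41 junction genes did not overlap between the lines, against 4231 of 16647 genes (25.4%) over all genes.

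KRT19, the keratin of simple epithelia with the largest difference of all genes named in this direction, gave signals of 37031 to 69816 (median 54281) in HCT116 and 4.95 to 18.2 (median 7.46) in RKO. All RKO arrays lay under the floor, and the difference of 10.001 (SE 0.12, adjusted p = 6.45e-20) ranged over the pairs from 9.53 to 10.45. KRT8 and KRT18, which pair with each other as the first keratins of simple epithelium, were well above the floor in both lines. KRT8 signals were 11939 to 35261 (median 24799) in HCT116 and 269.7 to 519.8 (median 333) in RKO. KRT18 signals were 75723 to 125452 (median 102628) and 14319 to 16263 (median 15979.6). The differences were 5.92 (SE 0.20, adjusted p = 4.17e-14) and 2.68 (SE 0.08, adjusted p = 1.38e-14), and both probe sets are of a kind that can also bind related transcripts. KRT23 differed by 6.12 and KRT15, a keratin of basal cells, by 3.16.

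CDH1 encodes E-cadherin, which holds epithelial cells together at adherens junctions. Its signals were 5297 to 10572 (median 7168) in HCT116 and 3.90 to 117 (median 11.4) in RKO, with 1 RKO array at 117 and the others under 100. CDH1 signals did not overlap, and the difference was 7.005 (SE 0.17, adjusted p = 1.01e-15). JUP, the plakoglobin that links cadherins to filaments, read 4917 to 8199 (median 5400.2) in HCT116 and 12.6 to 107 (median 26.7) in RKO, a difference of 6.60 (SE 0.17, adjusted p = 1.02e-15). The desmosome anchor DSP read 18615 to 32977 (median 24229) and 986 to 1266 (median 1147), a difference of 4.41 (SE 0.08, adjusted p = 1.71e-17). ESRP1, the splicing regulator that keeps epithelial isoforms, read 6003 to 15013 (median 8253) in HCT116 and 8.81 to 88.8 (median 12.1) in RKO. Every RKO array thus lay below 100 for ESRP1 and every HCT116 array above 500, at a difference of 7.36 (SE 0.20, adjusted p = 3.06e-15). Of 8 tight junction claudins tested, CLDN7 (5.585), CLDN4 (4.99) and CLDN3 (3.72) were higher in HCT116, while CLDN1, CLDN2, CLDN15 and CLDN23 were not called. EPCAM, the epithelial adhesion molecule used to sort carcinoma cells, was lower but present in RKO, at 3544 to 4139 (median 4053) against 28158 to 35438 (median 32646) in HCT116 (difference 3.03). Further members, picked after their values had been seen, were the vesicle proteins RAB25 (7.06) and MAL2 (7.18), the P-cadherin gene CDH3 (6.31) and the polarity gene CRB3 (3.02). OVOL2 and CLDN12 were the exceptions, higher in RKO at -1.27 and -1.31.

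ZEB1, the repressor of junction genes, ran the other way. Its signals were 162 to 510.4 (median 411) in HCT116 and 20266 to 26029 (median 23262) in RKO, well apart on all arrays, with a difference of -6.09 (SE 0.14, adjusted p = 2.64e-16). The E-boxes that ZEB1 is known to bind have the core CACCTG, or CAGGTG on the other strand. Promoters of 3 junction genes from the list with such a core, RAB25, DSP and CRB3, are shown as the 250 bases before the start in RefSeq on GRCh38.p14, with each core in capitals. They were chosen, after their values had been seen, because they hold the motif and were higher in HCT116. RAB25 lies on chr1:156060910-156061159, DSP on chr6:7541421-7541670 and CRB3 on chr19:6464021-6464270, each on the + strand.
RAB25: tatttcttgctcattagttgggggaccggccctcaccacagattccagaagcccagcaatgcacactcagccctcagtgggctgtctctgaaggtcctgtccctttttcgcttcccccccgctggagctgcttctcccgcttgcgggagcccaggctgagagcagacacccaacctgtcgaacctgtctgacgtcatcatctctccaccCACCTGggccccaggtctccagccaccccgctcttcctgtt
DSP: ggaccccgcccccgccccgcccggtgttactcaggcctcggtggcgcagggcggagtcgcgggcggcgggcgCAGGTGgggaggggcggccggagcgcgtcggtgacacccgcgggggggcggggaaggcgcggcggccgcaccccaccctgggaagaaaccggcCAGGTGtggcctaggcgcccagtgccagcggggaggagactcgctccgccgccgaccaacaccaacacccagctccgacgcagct
CRB3: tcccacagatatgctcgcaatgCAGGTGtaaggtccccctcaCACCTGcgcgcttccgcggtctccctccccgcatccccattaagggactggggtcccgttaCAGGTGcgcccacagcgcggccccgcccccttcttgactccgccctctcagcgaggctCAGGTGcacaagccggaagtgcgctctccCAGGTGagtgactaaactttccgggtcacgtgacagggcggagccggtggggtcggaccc
RAB25 holds 1 such core, DSP 2 and CRB3 5. Among the promoters of 13159 tested genes, 16.7% hold at least 1 core in this window, 2.16% at least 2 and 0.023% at least 5. A match of letters is not a binding site, and binding was not measured. Only 25 of the 41 junction genes (61.0%) have an entry in the promoter table, so the share of the group with a motif is not given and no conclusion on the group is drawn.

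Mesenchymal and matrix genes did not move as 1 block. Of 44 tested, 16 were higher in HCT116 and 9 higher in RKO (56.8% called against 48.6% of all genes), with a median of 0.37. Beside ZEB1, the RKO side held VIM, which encodes the filament vimentin, with signals of 2420 to 40711 (median 15094) in RKO and 722 to 11935 (median 1984) in HCT116. VIM ranges overlapped, and its difference of -2.18 (SE 0.52, adjusted p = 0.00204) was -2.86 over the 4 pairs without 5-aza-dC and -1.51 (adjusted p = 0.0934) over the 4 pairs with it. For VIM, 1 of 2 tested probe sets was called. AXL, a receptor kinase often found in mesenchymal-like carcinoma cells, read 23925 to 36919.6 (median 30336) in RKO and 4185 to 7249 (median 5942) in HCT116 (difference -2.36). CCN1, a secreted matrix protein, differed by -2.82 (SE 0.13, adjusted p = 2.59e-12). The HCT116 side held LOXL2, a collagen cross-linking enzyme, at 1037 to 3859 (median 2326) against 10.1 to 86.00 (median 53.3) in RKO, at a difference of 5.19 (SE 0.25, adjusted p = 7.06e-12). It also held, picked after their values had been seen, fibronectin FN1 (4.30), the factor gene TWIST1 (2.23) and SNAI1 (1.27), while SNAI2 (0.27), CDH2 (0.09) and TWIST2 (0.37) did not pass the test. Fibroblast genes were dim in both lines. The 6 fibroblast markers summed to 633 to 1035 in HCT116 and 883 to 1200.5 in RKO, and COL1A1, which has 5 probe sets with calls in both directions, lay at -0.80.

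Integrins, the receptors for matrix, were called at a share near that of all genes. Of 17 tested, 6 were higher in HCT116 and 2 in RKO (47.1% called against 48.6% of all genes), with a median of 0.28. ITGB4, the hemidesmosome subunit, read 3917 to 9571 (median 6307) in HCT116 and 12.3 to 287 (median 42.1) in RKO, without overlap, at a difference of 6.41 (SE 0.21, adjusted p = 3.65e-14). Its partner ITGA6 differed by 1.98 and ITGB8, with 1 of 2 tested probe sets called, by 3.89. ITGB1, the common subunit of many matrix receptors, was higher in RKO at -1.16 (SE 0.08, adjusted p = 5.37e-10).

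Transcription factors of the intestine divided between the lines. Of 23 tested, 10 were higher in HCT116 and 3 in RKO (56.5% called against 48.6% of all genes), with a median of 0.37. EHF, an epithelial ETS factor, read 6439.9 to 13456 (median 8227) in HCT116 and 4.37 to 53.2 (median 18.7) in RKO. All of its 6 probe sets were called in the same direction, and the one used gave 7.47 (SE 0.15, adjusted p = 7.04e-17). SOX9, the factor of intestinal progenitors, read 9077 to 19709 (median 12518) in HCT116 and 133 to 276 (median 176) in RKO, at a difference of 6.17 (SE 0.15, adjusted p = 5.57e-16). KLF5 of proliferating crypt cells (3.32) and KLF4 of differentiating cells (3.09) were both higher in HCT116. GATA4, HNF4G and FOXA1 made up the RKO side, at -2.87, -1.40 and -1.17. CDX2, the factor that fixes intestinal identity, was low in both lines and not called, at 51.2 to 222 (median 117) in HCT116 and 18.4 to 214 (median 111) in RKO, at a difference of 0.11 (SE 0.43, adjusted p = 0.867). CDX1 read 23.7 to 244 (median 67.8) and 17.2 to 94.5 (median 66.4) and did not reach the level for testing.

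Mature colon genes were called less often than genes in general. Of 31 colon differentiation genes tested, 8 were higher in HCT116 and 1 in RKO (29.0% called against 48.6% of all genes), with a median of 0.10. The count for HCT116 was 5 with a floor of 100 and 5 in the pairs without or with 5-aza-dC alone. Among the members called, CA2, a carbonic anhydrase, read 3649 to 5104 (median 4302) in HCT116 and 2132 to 3097 (median 2912) in RKO, a difference of 0.62 (SE 0.10, adjusted p = 3.5e-05). KRT20, a keratin of mature colon cells, read 258 to 3566 (median 1532) and 4.84 to 314 (median 107), a difference of 3.28 (SE 0.40, adjusted p = 2.03e-06). The brush border gene VIL1 read 19.3 to 253 (median 187) and 71.1 to 198 (median 137), at a difference of 0.02 (SE 0.31, adjusted p = 0.971), and the signs for VIL1 and CDX2 changed with the floor and with the pairs used. Of the 11 markers of colon epithelium, 5 had a median of 500 or more in HCT116 and 2 in RKO, and their summed signal was 169620 to 256170 in HCT116 and 19456 to 21515 in RKO. At this level the labelled origin rested on EPCAM and KRT18 in both lines, and also on KRT8, KRT19 and CDH1 in HCT116. VIL1, CDX1, CDX2, CDH17, LGALS4 and GPA33 were low in each line. The adhesion gene CEACAM1 (2.33, SE 0.29, adjusted p = 2.5e-06) was higher in HCT116, and the mucin gene MUC12 (-2.79, SE 0.30, adjusted p = 4.62e-07) was higher in RKO. For CEACAM1, 2 of 5 tested probe sets were called. The 5 blood markers summed to 191 to 767 in HCT116 and 170 to 390 in RKO, and the 3 endothelial markers to 214 to 463 and 218 to 454.

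**Figure D2:**
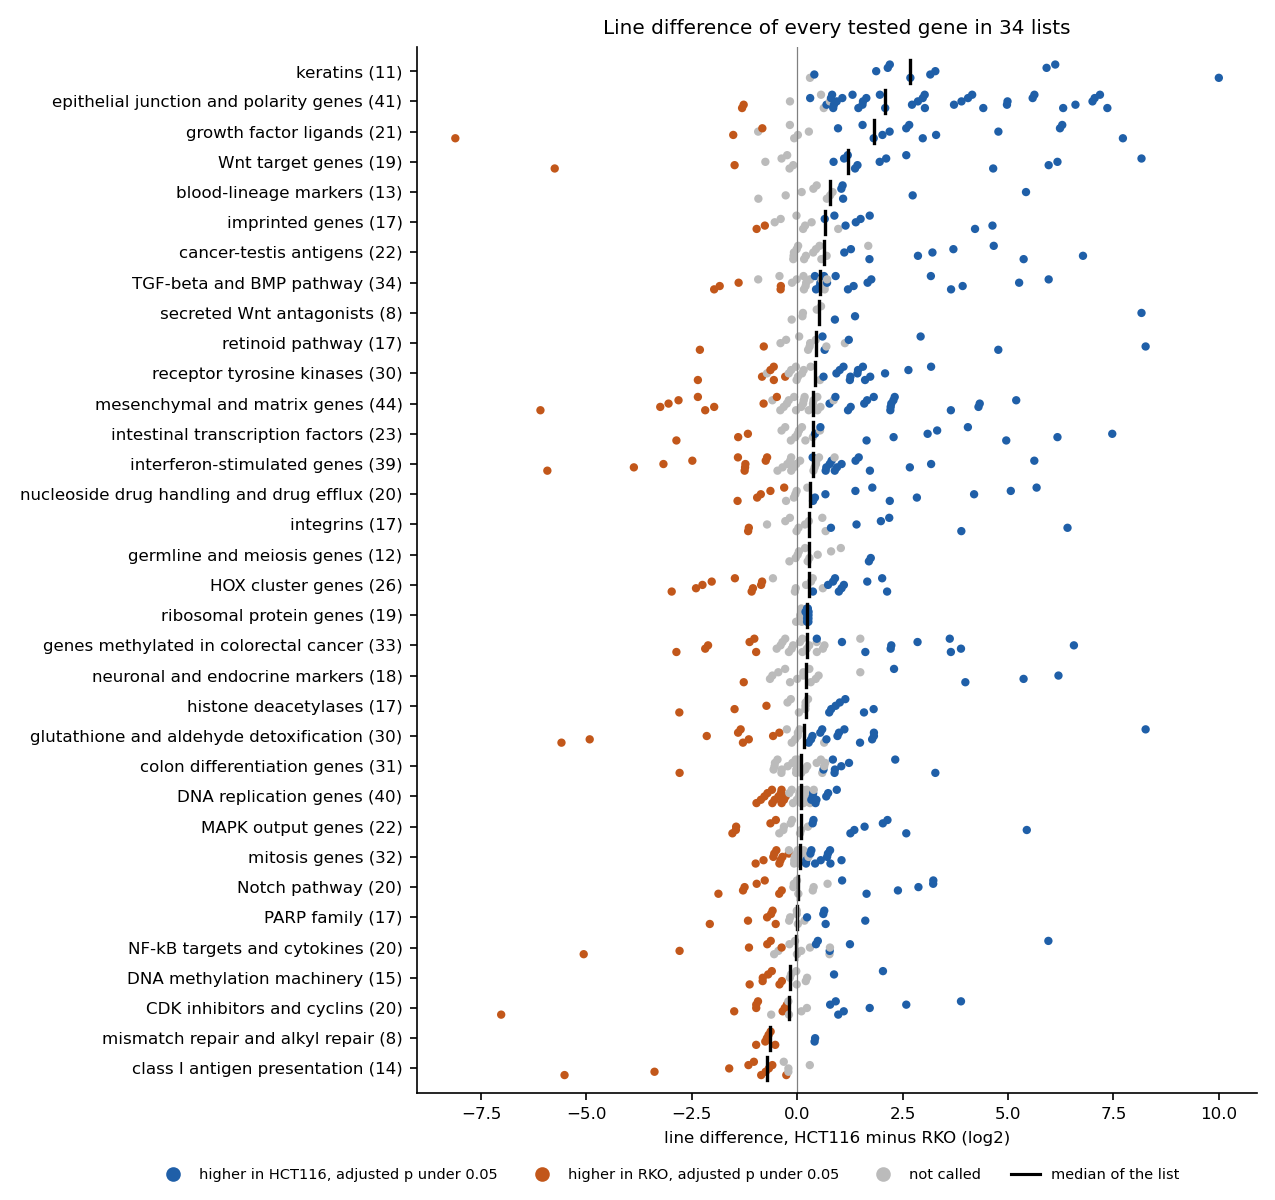
Line difference (log2, HCT116 minus RKO) of every tested gene in the gene lists shown, with the number tested in brackets, blue for genes called higher in HCT116, orange for genes called higher in RKO, grey for genes not called and a bar at each median. Keratins (median 2.68) and epithelial junction genes (2.09) lie highest and class I antigen presentation (-0.71) lowest.

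HOX genes, which record position along the body axis, were called in both directions. Of 26 tested, 10 were higher in HCT116 and 9 in RKO (73.1% called against 48.6% of all genes). HOXB8 (2.13, SE 0.18, adjusted p = 2.54e-08) and HOXB7 (1.11) were higher in HCT116, and their cluster neighbour HOXB2 was higher in RKO, where it read 2926 to 3725 (median 3199) against 165 to 857 (median 409) in HCT116, at a difference of -2.98 (SE 0.21, adjusted p = 1.24e-09). HOXC6 was higher in RKO at -1.48. For HOXB8, 1 of 2 tested probe sets was called. Of 18 neuronal and endocrine markers, 4 were higher in HCT116 and 1 in RKO, a share of 27.8% called against 48.6% of all genes. SYT1, a synaptic vesicle calcium sensor, read 5495 to 9956 (median 6088) in HCT116 and 17.03 to 157 (median 98.5) in RKO, at a difference of 6.20 (SE 0.20, adjusted p = 3.53e-14). SCG2, a secretory granule protein, differed by 5.37, MAP2, which binds microtubules in dendrites, by 3.99, and STMN3 by 2.30. Of 13 blood-lineage markers, 5 were higher in HCT116 and none in RKO (38.5% called against 48.6% of all genes). The count of 5 fell to 2 with no filter on signal, to 2 without both pairs at odds with their labels and to 3 without the 5-aza-dC pair. PRF1, the perforin gene of killer lymphocytes, led them at 1516 to 27259.8 (median 6501) in HCT116 and 38.5 to 339.6 (median 127) in RKO, at a difference of 5.43 (SE 0.47, adjusted p = 2.88e-08), and HLA-DRA differed by 2.74.

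Targets of the Wnt pathway, in which beta-catenin acts with TCF and LEF factors, were mostly higher in HCT116. Of 19 tested, 12 were higher in HCT116 and 2 in RKO, with a median of 1.20, and the median was 0.76 to 1.48 in single pairs. DKK1, a secreted inhibitor of the pathway and itself a target, read 17295 to 30693 (median 22544) in HCT116 and 15.6 to 305 (median 71.9) in RKO. DKK1 did not overlap between the lines, at 8.17 (SE 0.24, adjusted p = 1.1e-14). AXIN2, the feedback target most used to read the pathway, gave 476 to 1810.2 (median 1220.1) in HCT116 and 119 to 341 (median 261) in RKO, a difference of 2.11 (SE 0.20, adjusted p = 8.4e-08). For AXIN2, 2 of 4 tested probe sets were called, both higher in HCT116. RNF43, a ligase that removes Wnt receptors and was picked after its value had been seen, differed by 4.65, and CCND1, the cyclin that starts the cell cycle, by 2.59 (SE 0.15, adjusted p = 7.77e-11). LEF1 stood against them. Its signals were 6.72 to 82.9 (median 23.3) in HCT116 and 2241 to 3397 (median 3061) in RKO, with a difference of -5.75 (SE 0.18, adjusted p = 1.69e-14). The crypt stem cell gene LGR5 read 6.05 to 86.1 (median 12.6) and 4.96 to 246 (median 79.2) and was not called, at a difference of -0.76 (SE 0.33, adjusted p = 0.0802). Of 8 secreted Wnt antagonists, 3 were higher in HCT116 and none in RKO (37.5% called against 48.6% of all genes). Apart from DKK1 these were DKK4 (1.37, SE 0.49, adjusted p = 0.0305) and FRZB (0.89, SE 0.30, adjusted p = 0.0225), and both rested on single pairs. DKK4 lost its call without any 1 of the 4 pairs with 5-aza-dC (adjusted p of 0.0787 to 0.108) and was -0.27 over the pairs without the drug. FRZB lost its call without the PJ-34 pair (adjusted p = 0.076) and without the 5-aza-dC pair (adjusted p = 0.0569). SFRP4, which the study names, and SFRP1, taken here to be the gene it prints as SHRP1, gave 0.12 and 0.46 and were not called.

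Growth factor ligands were mostly higher in HCT116. Of 21 ligands tested, 13 were higher in HCT116 and 3 in RKO (76.2% called against 48.6% of all genes). The median was 1.81, with 1.15 to 1.96 in single pairs, and 1.08 when all probe sets of a gene were used. EREG, a ligand of the EGF receptor, read 9711 to 16674 (median 14652) in HCT116 and 4.07 to 124 (median 51.8) in RKO, at 7.73 (SE 0.16, adjusted p = 1.16e-16). KITLG, the ligand of the receptor KIT, was present in both lines but far stronger in HCT116, with 50622 to 78001 (median 67298) against 642 to 1212 (median 804), at a difference of 6.29 (SE 0.11, adjusted p = 8.97e-18). PDGFC, a platelet-derived growth factor, differed by 6.23 (SE 0.16, adjusted p = 1.74e-15). HGF, the ligand of the receptor MET, was the exception. It read 5.76 to 73.2 (median 12.7) in HCT116 and 10075 to 20264 (median 15580) in RKO, every HCT116 array below 100, and all of its 5 probe sets were called higher in RKO. Its difference was -8.11 (SE 0.14, adjusted p = 8.97e-18).

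Receptor tyrosine kinases were spread over both lines. Of 30 tested, 14 were higher in HCT116 and 6 in RKO (66.7% called against 48.6% of all genes), with a median of 0.43. EGFR, the receptor of EREG, read 2339.6 to 6174 (median 3540.1) in HCT116 and 525 to 1244 (median 929) in RKO, at a difference of 2.08 (SE 0.18, adjusted p = 3.48e-08), and MET read 14867 to 26302 (median 18710.3) and 7169 to 11251 (median 8998), at a difference of 1.10 (SE 0.09, adjusted p = 1.63e-08). EPHA1, an ephrin receptor, differed by 3.18. Of 22 MAPK output genes, which follow ERK signalling, 9 were higher in HCT116 and 5 in RKO (63.6% called). DUSP4, a phosphatase that limits ERK, read 3211 to 6913 (median 5196) in HCT116 and 40.3 to 162 (median 117) in RKO, at a difference of 5.45 (SE 0.20, adjusted p = 1.33e-13), and DUSP6 differed by 1.35 (SE 0.15, adjusted p = 7.42e-07). The feedback inhibitors SPRY2 (-1.54) and SPRY4 (-1.46) and the AP-1 gene FOSL1 (-1.45), picked after their values had been seen, were higher in RKO. The median of this list was 0.08 by the brightest probe set of a gene and -0.016 when all probe sets of a gene were used. RGS4, which shortens signals of G protein-coupled receptors, had the largest difference of all genes named on the RKO side. RGS4 signals were 6.17 to 52.00 (median 10.3) in HCT116 and 43261 to 64150.1 (median 54285) in RKO, at -10.07 (SE 0.10, adjusted p = 8.84e-21). PRKACB, a catalytic subunit of the cAMP-dependent kinase, lay opposite, at 18623 to 35502 (median 27107) in HCT116 and 7.78 to 142 (median 51.6) in RKO, at a difference of 8.58 (SE 0.18, adjusted p = 1.14e-16).

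The TGF-beta and BMP pathway leaned to HCT116. Of 34 genes, 16 were higher in HCT116 and 5 in RKO (61.8% called against 48.6% of all genes), with a median of 0.54. BMP4, a ligand and Wnt target, read 1850.1 to 5107 (median 3388) in HCT116 and 14.2 to 31.3 (median 19.9) in RKO, at a difference of 5.96 (SE 0.21, adjusted p = 1.24e-13). The BMP response genes ID2 (5.26, SE 0.16, adjusted p = 9.08e-15), ID1 (3.65) and SMAD6 (3.92) were all higher in HCT116. In the Notch pathway, 6 of 20 genes were higher in HCT116 and 7 in RKO (65.0% called). The ligand JAG1 (2.88, SE 0.10, adjusted p = 1.12e-13) and the target HEYL (3.23) lay on the HCT116 side, and the ligand DLL1 (-1.87, SE 0.16, adjusted p = 2.87e-08) and the target NRARP (-1.25) on the RKO side. For HEYL and DLL1, 1 of 2 tested probe sets each was called. Of 17 retinoid pathway genes, 6 were higher in HCT116 and 2 in RKO (47.1% called against 48.6% of all genes). ALDH1A3, which makes retinoic acid, read 20107 to 29820.4 (median 24411) in HCT116 and 14.02 to 221 (median 47.8) in RKO, at 8.26 (SE 0.21, adjusted p = 1.48e-15). DHRS3, which reduces retinal, differed by 4.77, the carrier CRABP2 by 2.93 and RARRES1, a retinoid responsive gene, by -2.31.

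Class I antigen presentation, by which cells display peptides to T cells, had a list median towards RKO. Of 14 genes, 10 were higher in RKO and none in HCT116, with a median of -0.71 and medians of -1.23 to -0.25 in single pairs. PSMB8, a subunit of the immunoproteasome, carried the largest difference. It read 9.06 to 214 (median 14.4) in HCT116 and 2253 to 3522 (median 2697) in RKO, with 1 HCT116 array above the others at 214, and the difference was -5.52 (SE 0.25, adjusted p = 2.68e-12). ERAP2, which trims peptides, differed by -3.39 (SE 0.25, adjusted p = 2.51e-09), ERAP1 by -1.61 and the peptide transporter gene TAP2 by -1.16. Of the 5 tested probe sets of ERAP1, 2 were called higher in RKO and 1 higher in HCT116. The B2M light chain, picked after its value had been seen, differed by -0.26. CD274, the checkpoint ligand PD-L1, read 156 to 291 (median 201) in HCT116 and 17883 to 22261 (median 20569) in RKO, at a difference of -6.61 (SE 0.11, adjusted p = 6.54e-18), and IFI16, a sensor of DNA, read 15.8 to 146 (median 99.9) and 16344 to 20245 (median 18577), at a difference of -7.73 (SE 0.16, adjusted p = 7.04e-17).

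Interferon-stimulated genes were called in both directions. Of 39 tested, 14 were higher in HCT116 and 10 in RKO (61.5% called against 48.6% of all genes). In the pairs without 5-aza-dC alone, 8 were higher in HCT116. BST2, which tethers virus particles to the cell, read 17887 to 22882 (median 19223) in RKO and 53.1 to 1335 (median 300.5) in HCT116, at a difference of -5.93 (SE 0.36, adjusted p = 2.57e-10). MX1, an antiviral GTPase, differed by -3.88 (SE 0.24, adjusted p = 3.58e-10). LGALS3BP, a secreted glycoprotein, lay on the HCT116 side at 5.62 (SE 0.44, adjusted p = 6.14e-09), as did HERC5, a ligase for ISG15, at 3.18. Of 20 NF-kB targets and cytokines, 5 were higher in HCT116 and 6 in RKO (55.0% called against 48.6% of all genes). The HCT116 count was 3 without the control pair, 3 without the TSA pair and 3 with no filter. IL32 read 6813 to 8680.2 (median 7247) in RKO and 85.6 to 413 (median 261) in HCT116, at a difference of -5.07 (SE 0.20, adjusted p = 3.71e-13). ICAM1, a leukocyte adhesion receptor, differed by -2.79 (SE 0.26, adjusted p = 5.95e-08), and IL18, a cytokine of epithelial cells, read 3228 to 5924 (median 4611) in HCT116 and 6.16 to 137 (median 43.9) in RKO, at a difference of 5.96 (SE 0.22, adjusted p = 1.76e-13). BCL2A1, an NF-kB target that blocks cell death, was outside that list and read 9897 to 16775 (median 13601) in RKO and 7.65 to 106 (median 65.01) in HCT116 (difference -7.64).

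**Figure D3:**
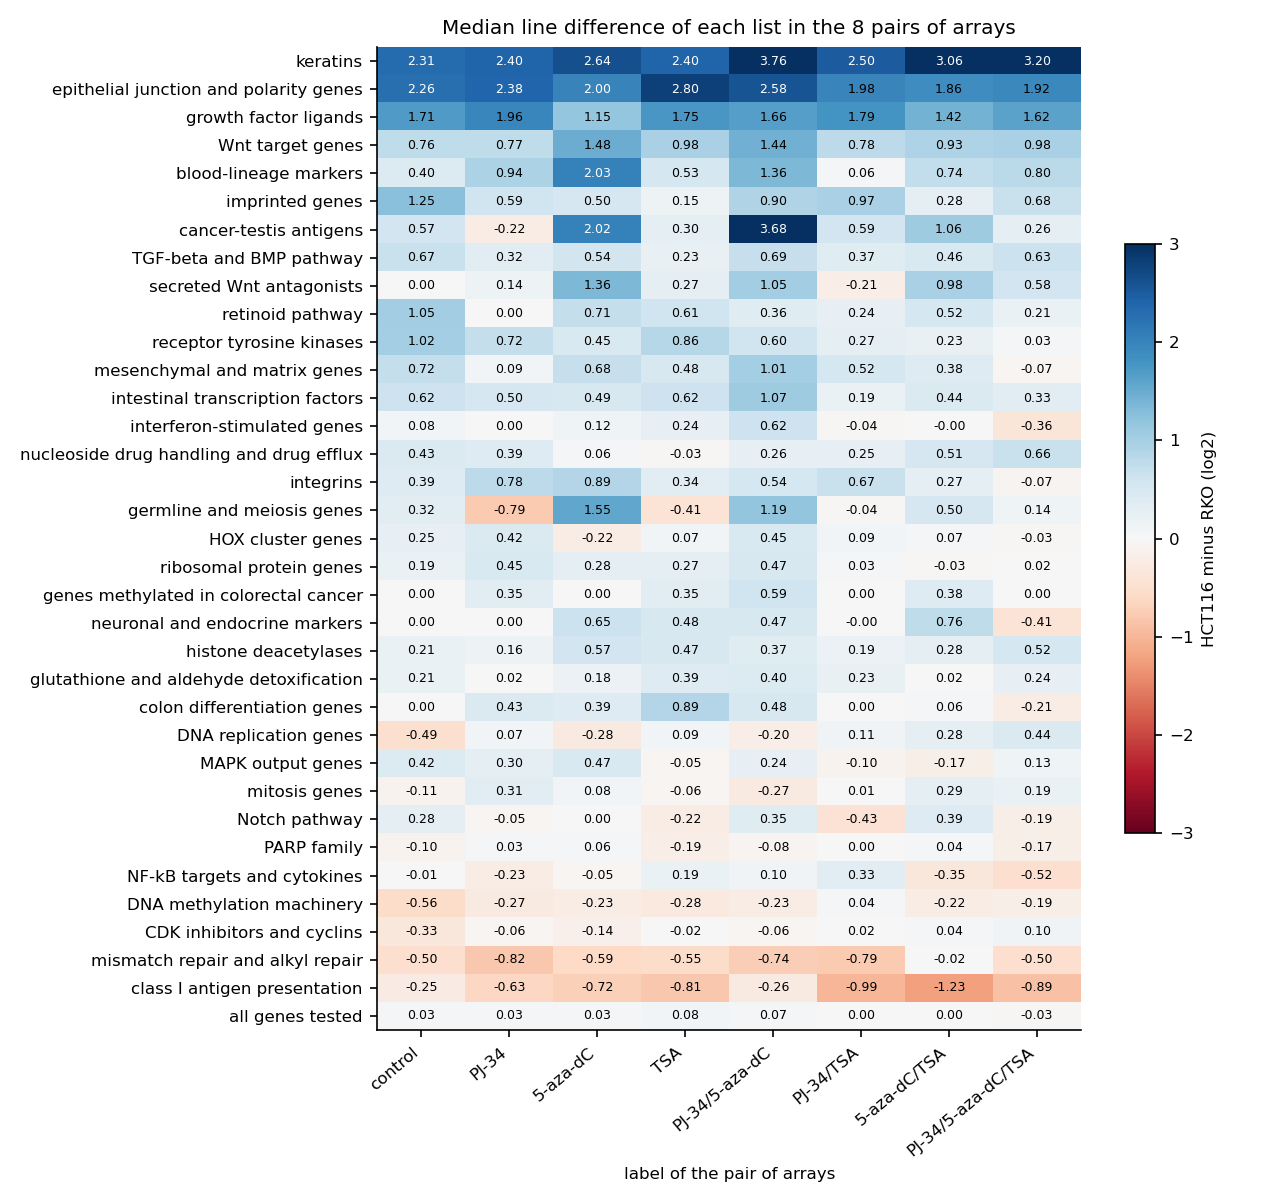
Median line difference (log2, HCT116 minus RKO) of each gene list in each of the 8 pairs of arrays, blue where higher in HCT116 and red where higher in RKO. The rows of keratins (2.31 to 3.76) and junction genes (1.86 to 2.80) are positive and that of class I antigen presentation (-1.23 to -0.25) is negative in every pair, while cancer-testis antigens reach 2.02 and 3.68 in the pairs labelled 5-aza-dC and PJ-34/5-aza-dC, the latter with an RKO array that read against its label.

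Genes on in a line on every array and off in the other on every array were counted as switched, with all 8 signals under 100 in the silent line and all 8 at 500 or more in the other. This gave 60 genes on in HCT116 alone and 23 on in RKO alone. The first set held 3 of the 41 junction genes, the keratin KRT19, the factor EHF and the drug efflux pump ABCC2, which read 1861 to 2914 (median 2730.2) in HCT116 and 4.80 to 51.7 (median 7.85) in RKO. CYP24A1, the enzyme that breaks down active vitamin D, read 6109.6 to 9098 (median 7301) and 6.70 to 47.7 (median 22.04), and the protocadherin PCDH7 7217 to 28058 (median 13505) and 4.26 to 63.2 (median 32.6). The set on in RKO alone held RGS4 and HGF and also CBR1, a carbonyl reductase, at 4705 to 6143 (median 5775) against 8.97 to 89.3 (median 15.7) in HCT116. The rule itself requires the signals to lie apart on the arrays with 5-aza-dC, with TSA and with both. It is therefore not a separate result on the drugs. With stricter signals the counts were lower, 14 and 7 genes when silence meant under 50, and 36 and 12 genes when the active line had to reach 1000 on every array.

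A further 6 genes were under 100 in a line on the 4 arrays without 5-aza-dC, had a mean at least 5-fold higher on the 4 arrays labelled with it, and read 500 or more throughout in the other line. All 6 had a mean under the floor without the drug, so the size of the rise depends on dim signals. LXN, an inhibitor of carboxypeptidases, went in HCT116 from a mean of 34.8 to 417, with the arrays labelled with 5-aza-dC between 306 and 562, and RKO had means of 2306 and 2239. With means raised to the floor the rise of LXN was 8.33-fold, and the LXN difference still was -3.93 (SE 0.39, adjusted p = 1.46e-07) over all pairs. With the same floor the other 5 rose 2.27-fold or less, and without their highest array none of these 5 reached 5-fold on the deposited signals. In HCT116 they were IL13RA2, a decoy receptor for IL-13, from a mean of 14.2 to 86.0, and PSMB8 from 13.9 to 73.0, or to 26.0 without its highest array at 214. In RKO they were SERPINB5, the epithelial serpin maspin, from 14.6 to 96.3, the protease inhibitor CSTA from 22.7 to 114 and the neurotrophin BDNF from 7.79 to 45.1. As a pair of RKO arrays read against their labels, the RKO means mix both states. The rule also left out any gene at 100 or more on the RKO array labelled PJ-34. The RKO genes listed are therefore not a count of those that rise with 5-aza-dC in RKO. The promoter of LXN, the gene whose rise held on both counts, is shown as the 250 bases before the start on GRCh38.p14, with each CpG, the site that DNA methyltransferases modify, in capitals. LXN lies on the - strand at chr3:158672649-158672898.
LXN: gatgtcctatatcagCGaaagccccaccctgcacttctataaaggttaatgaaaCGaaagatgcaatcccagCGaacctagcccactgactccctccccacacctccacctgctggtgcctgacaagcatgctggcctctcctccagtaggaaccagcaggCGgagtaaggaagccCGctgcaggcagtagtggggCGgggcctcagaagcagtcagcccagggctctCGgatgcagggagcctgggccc
This window holds 7 CpGs, where the median over 13159 promoters was 19. Methylation was not measured on the arrays.

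Genes known to be methylated in colorectal cancer were called at a share near that of all genes. Of 33 tested, 10 were higher in HCT116 and 6 in RKO (48.5% called against 48.6% of all genes). At least 2-fold in all 8 pairs, 8 of the 33 were higher in HCT116 and 2 in RKO, against 5.8% and 3.18% of all genes. HLTF, a chromatin remodeller, read 4715 to 12779.6 (median 8314) in HCT116 and 13.8 to 212 (median 108) in RKO, at a difference of 6.56 (SE 0.27, adjusted p = 8.29e-13). CDKN2A, the gene of the p16 and ARF growth inhibitors, read 5214 to 7006 (median 5838) and 47.9 to 2180.1 (median 793), at a difference of 3.88 (SE 0.53, adjusted p = 7.25e-06). RUNX3, a tumour suppressor factor, differed by 3.62 (SE 0.26, adjusted p = 1.7e-09). DAPK1, a kinase of cell death, was higher in RKO at -2.11 (SE 0.14, adjusted p = 6.77e-10), and so was MGMT, which repairs alkylated guanine, at -0.97 (SE 0.10, adjusted p = 3.16e-07). Of the 10 tested genes that the study names, 3 were higher in HCT116 and 1 in RKO. Several of them were picked by the study from these same arrays, so the counts are not independent evidence. UCHL1, a neuronal ubiquitin hydrolase, gave 13.3 to 2442 (median 295) in HCT116 and 21.5 to 592 (median 76.8) in RKO and was not called, at a difference of 1.496 (SE 0.66, adjusted p = 0.0791). LOX, a matrix cross-linking enzyme, gave 7.62 to 5981 (median 1659) in RKO and 7.44 to 127 (median 76.8) in HCT116, at a difference of -3.05 (SE 0.78, adjusted p = 0.00371), and lost its call in the 4 pairs without 5-aza-dC (adjusted p = 0.178).

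Cancer-testis antigens are germ cell genes that are silenced by methylation in most tissues. Their list median leaned to HCT116 over the pairs labelled with 5-aza-dC only. Of 22 tested, 9 were higher in HCT116 and none in RKO (40.9% called against 48.6% of all genes). The list median was -0.08 over the 4 pairs without 5-aza-dC and 1.55 over the 4 pairs with it. The lowest and highest single pairs, PJ-34 (-0.22) and PJ-34/5-aza-dC (3.68), are those in which an RKO array read against its label. MAGEA6 read 10458 to 20781 (median 18909.6) in HCT116 and 5.55 to 803 (median 177) in RKO, apart on every array at 6.78 (SE 0.39, adjusted p = 1.18e-10). MAGEB2 differed by 5.37 (SE 0.60, adjusted p = 6.93e-07) and MAGEA12 by 4.66 (SE 0.38, adjusted p = 1.13e-08). Members of the MAGEA family are near copies of each other, so a probe set may read more than the gene it is named for. Of 12 germline and meiosis genes, 2 were called (16.7% against 48.6% of all genes). DPPA2 and TEX14 were higher in HCT116 at 1.70 and 1.74, and both lost the call in the pairs without 5-aza-dC. Of 17 imprinted genes, which are expressed from a single parental copy, 8 were higher in HCT116 and 2 in RKO (58.8% called). SGCE (4.63, SE 0.24, adjusted p = 2.98e-11) and its neighbour PEG10 (4.22, SE 0.33, adjusted p = 5.75e-09), which share a promoter region, differed most.

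The enzymes that the drugs inhibit were among the genes tested. DNMT1, the maintenance methyltransferase, read 8799.8 to 10572 (median 9858) in HCT116 and 9366 to 12841 (median 11194) in RKO and was not called, at a difference of -0.17 (SE 0.08, adjusted p = 0.0813). Of 15 genes of the DNA methylation machinery, 2 were higher in HCT116 and 7 in RKO. DNMT3B differed by 0.87 (SE 0.12, adjusted p = 7.17e-06), UHRF1, which recruits DNMT1, by -0.82 (SE 0.10, adjusted p = 2.61e-06) and the glycosylase MBD4 by -1.13 (SE 0.08, adjusted p = 1.03e-09). Of 17 histone deacetylases and sirtuins, 7 were higher in HCT116 and 3 in RKO (58.8% called). HDAC1 differed by 0.91 (SE 0.08, adjusted p = 1.49e-08), HDAC2 by 1.01 and HDAC6 by 1.58, and HDAC9 was higher in RKO at -2.80 (SE 0.23, adjusted p = 1.3e-08). Of the tested probe sets, 1 of 4 was called for HDAC9, 1 of 2 for HDAC2 and 2 of 3 for HDAC6. Of 17 PARP family genes, 5 were higher in HCT116 and 6 in RKO (64.7% called). PARP1, which makes most cellular poly(ADP-ribose), read 4712 to 7616 (median 5861) and 3416 to 4264 (median 3702), at a difference of 0.62 (SE 0.08, adjusted p = 5.04e-06), and the tankyrase TNKS differed by 1.61 (SE 0.09, adjusted p = 8.06e-11). For TNKS, 1 of 3 tested probe sets was called. Of 8 mismatch and alkyl repair genes, 6 were higher in RKO and 2 in HCT116, among them MSH6 at -0.76 (SE 0.11, adjusted p = 1e-05).

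Genes that handle nucleoside drugs and export drugs included large differences. Of 20 tested, 10 were higher in HCT116 and 5 in RKO. CDA, the deaminase that inactivates cytidine analogues, read 447 to 1333 (median 1012) in HCT116 and 7.32 to 71.1 (median 9.28) in RKO, at a difference of 4.20 (SE 0.24, adjusted p = 8.89e-11). DCK, the kinase that activates 5-aza-dC in cells and was picked by its role, read 3215 to 4320.2 (median 4059) and 2938 to 4975 (median 3769) and was not called, at a difference of -0.01 (SE 0.10, adjusted p = 0.926). The export pumps ABCC2 (5.68, SE 0.18, adjusted p = 2.21e-14) and ABCC3 (5.07) and the thymidine kinase TK1 (2.20) were higher in HCT116. The median of this list was 0.31 by 1 probe set per gene and -0.0082 over all probe sets of a gene. Of 30 detoxification genes, 14 were higher in HCT116 and 9 in RKO. GSTM3 read 4695 to 8428 (median 6031) in RKO and 21.2 to 239.6 (median 150.4) in HCT116, at a difference of -5.59 (SE 0.23, adjusted p = 6.8e-13), and GSTT1, which many people lack, differed by -4.92 (SE 0.20, adjusted p = 5.74e-13). The quinone reductase NQO1 was higher in HCT116 at 1.82 (SE 0.08, adjusted p = 3.53e-12). For GSTM3, 1 of 2 tested probe sets was called.

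Cell cycle genes were called in both directions, as genes were in general (25.6% higher in HCT116 and 23.1% in RKO). Of 32 mitosis genes, 11 were higher in HCT116 and 9 in RKO (62.5% called), and the HCT116 count was 6 in the pairs without 5-aza-dC. Of 40 replication genes, 8 were higher in HCT116 and 13 in RKO (52.5% called against 48.6% of all genes). Differences lay between -0.99 for KIF11 and 1.05 for KIF20A among the mitosis genes and between -0.97 for POLA2 and 0.94 for RPA1 among the replication genes. The D cyclins were divided. CCND2 read 7558 to 10062 (median 8781) in RKO and 34.1 to 103 (median 71.8) in HCT116, at a difference of -7.02 (SE 0.15, adjusted p = 1.6e-16), while CCND1, given above, was higher in HCT116. Of 20 CDK inhibitors and cyclins, 7 were higher in HCT116 and 8 in RKO. PLK2, a polo-like kinase, read 3689 to 12755 (median 7557) in HCT116 and 10.7 to 579.8 (median 207) in RKO, at a difference of 5.24 (SE 0.31, adjusted p = 1.48e-10), and PERP, a desmosome protein, differed by 1.66 (SE 0.07, adjusted p = 1.81e-12). Of 19 ribosomal protein genes, 11 were higher in HCT116 and none in RKO (57.9% called), with differences of 0.27 or less. The count was 0 after quantile normalization, 0 without a variance trend, 0 over the 4 pairs with 5-aza-dC, 1 without both pairs at odds with their labels and 7 without the PJ-34 pair.

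Line differences were unevenly spread over the chromosomes. On chromosome 9, 110 of 677 genes (16.2%) were higher in HCT116 and 280 (41.4%) in RKO, with a median difference of -0.27 against 0.05 over all genes. Chromosome 17 showed the reverse, with 352 of 975 genes (36.1%) higher in HCT116 and 137 (14.1%) in RKO and a median of 0.25. Of the other chromosomes, those with shares more than 10 percentage points apart are given, a limit chosen after the values had been seen. Chromosomes 8 and 20 leaned to RKO, with 32.9% and 29.8% of genes higher there against 18.4% and 17.1% in HCT116. Chromosomes 10, 18 and 22 leaned to HCT116, at 32.7%, 31.1% and 29.0% against 22.0%, 16.8% and 16.8% in RKO.

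**Figure D4:**
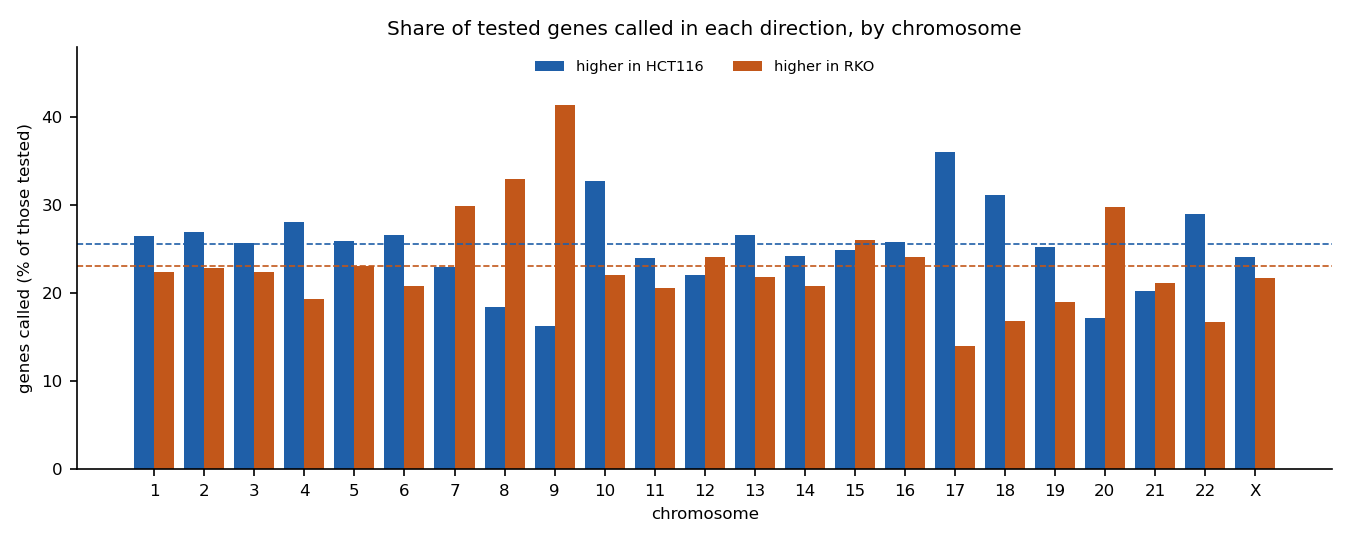
Share of tested genes (percent) called higher in HCT116 (blue) and in RKO (orange) on each chromosome, with the shares over all genes (25.6% and 23.1%) as dashed lines. Chromosome 9 has 41.4% of genes higher in RKO and chromosome 17 has 36.1% higher in HCT116.

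Some large differences sat side by side. There were 18 runs of at least 3 neighbouring tested genes that were all called in the same direction at 4-fold or more, 9 in each direction. Family clusters made up several. On chromosome 19, the kallikrein protease genes KLK6, KLK7, KLK8 and KLK10 were higher in HCT116 by 4.47 to 5.34. On chromosome 17, KRT13, KRT15 and KRT19 were higher in HCT116 by 2.20 to 10.00. KRT13 completed this run, and its difference was 0.78 (adjusted p = 0.341) over the 4 pairs without 5-aza-dC and 3.62 over those with it. On chromosome 7, CLDN3, CLDN4 and METTL27 were higher in HCT116 by 3.13 to 4.99. On chromosome 4, the EGF receptor ligands EREG and BTC stood beside PARM1, at 2.02 to 7.73. HBE1, an embryonic globin gene, and the olfactory receptor genes OR51B4 and OR51B2 on chromosome 11 were higher in HCT116 by 2.54 to 6.84. For BTC and HBE1, 1 of 2 tested probe sets each was called. On the RKO side, the protocadherin genes PCDHB7, PCDHB8 and PCDHB16 on chromosome 5 lay at -3.62 to -2.995, the zinc finger genes ZNF140, ZNF891 and ZNF10 on chromosome 12 at -5.65 to -3.05, and LAMB3, HSD11B1-AS1 and G0S2 on chromosome 1 at -8.39 to -2.65. Both runs on chromosome 9, BNC2, CNTLN and ADAMTSL1 and then ZNF883, ZFP37, SLC31A2 and FKBP15, were higher in RKO. Probe sets of clustered gene families can bind more than 1 member, so neighbours of a family are not independent readings.

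Few line differences passed a test of dependence on the drugs. An F test over the products of the line with 5-aza-dC, TSA and PJ-34 called 25 genes (0.15% of 16647) and 39 probe sets. The largest of the 3 products was that with 5-aza-dC for 12 of these genes, that with TSA for 13 and that with PJ-34 for 0. The number rested on single pairs, since 0 probe sets passed without the 5-aza-dC pair and 241 without the PJ-34/5-aza-dC pair, and 0 passed without a filter on signal or without a variance trend. At an unadjusted p under 0.05 there were 4011 probe sets with all pairs and 2885 without the 5-aza-dC pair. Without both pairs at odds with their labels 67 probe sets passed, and 12 of the 25 genes were among them.

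TKTL1, a transketolase-like gene, read under 100 in the mean of both lines without 5-aza-dC. Its mean signal was 60.1 without and 15737 with it in HCT116 and 23.7 and 51.4 in RKO, so the line difference was 0.30 without and 7.11 with the drug (product 6.81, SE 0.76, F adjusted p = 0.00567). IFI27, an interferon-stimulated gene, had a higher mean in RKO with and without it, at 84.9 without and 2526 with it in HCT116 and 3527 and 4212 in RKO. Its line difference shrank from -5.45 to -0.90 (product 4.55, SE 0.47, F adjusted p = 0.00567). SPARC, a secreted matrix protein, went the way of TKTL1, with a line difference of 1.81 without and 5.48 with 5-aza-dC (product 3.67, SE 0.48, F adjusted p = 0.0192). PRF1 moved from 3.91 to 6.94, KRT20 from 2.14 to 4.42, LXN from -5.39 to -2.46, and BST2 from -7.08 to -4.77. In each of these the product with 5-aza-dC was above 0. Over all 25 genes it was above 0 for 17, 1 or more for 9 and -1 or less for 3, which were C6orf141 (-1.31), ASPH (-1.04) and DDIT3 (-1.02). The RKO means mix arrays that read with and against their labels, as given above, so the products with 5-aza-dC and PJ-34 carry that doubt. For TSA, the complement regulator CD55 had a product of -1.37 (SE 0.16) and CCND1 one of 0.96 (SE 0.14).

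**Figure D5:**
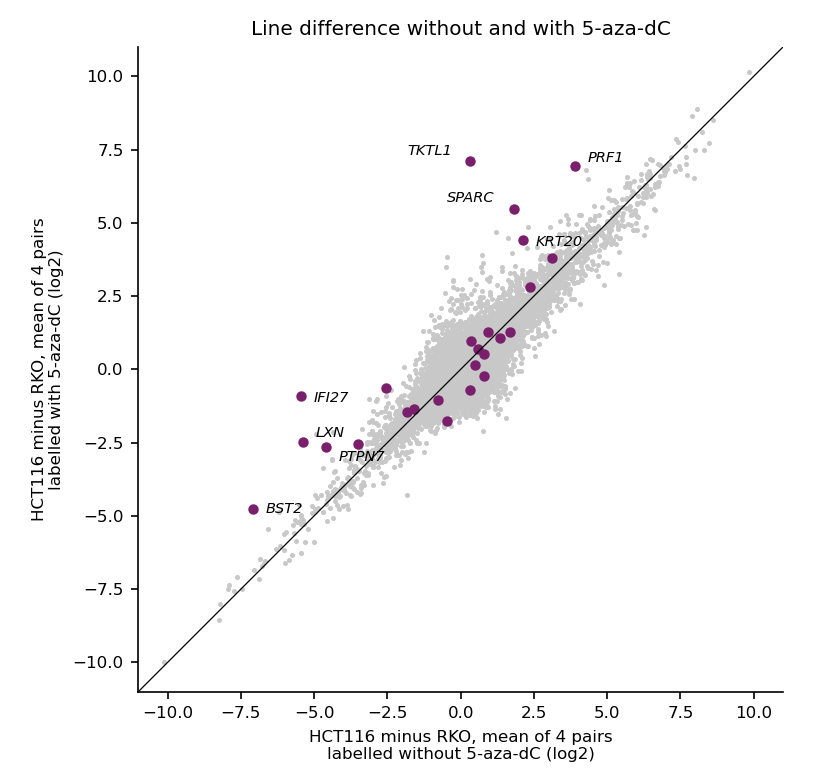
Line difference (log2, HCT116 minus RKO) of every tested gene as the mean of the 4 pairs labelled without 5-aza-dC (horizontal) and of the 4 pairs labelled with it (vertical), with the line of equality and the 25 genes past the F test in purple. Most genes lie along the line of equality, and TKTL1 (0.30 and 7.11) and IFI27 (-5.45 and -0.90) lie far above it.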

How the data were processed

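RNA of HCT116 and RKO cells was hybridized to 16 arrays, 1 per line and treatment label, and groups were taken from the deposited labels. The authors deposited linear signal intensities for 54675 probe sets, produced by GCOS software, whose version is not given in the sources used here, with each array brought to a trimmed mean of 1000.1 to 1000.2. Detection calls were not used here, and the number of arrays limits the precision. By the platform annotation, 41097 probe sets carry 1 gene symbol, 1801 several and 11777 none, and 41043 of the first matched a gene in a RefSeq table (GRCh38.p14).

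Before log2, any signal below the floor of 50 was raised to it, and probe sets at 100 or more on at least 4 of the 16 arrays were kept, without the 62 control probe sets. The line difference was fitted by limma 3.58.1 (R 4.3.3), with the treatment label as a fixed block, a variance prior that follows mean signal, and two-sided p adjusted by Benjamini and Hochberg over all probe sets. A second model held the line, 5-aza-dC, TSA, PJ-34 and their products with the line, with a moderated F test over the 3 products. A gene was represented by the probe set with the highest mean log2 among those with a single symbol. Of 8327 genes with several tested probe sets, 481 had calls in both directions. The code was tested on simulated data.

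Members and gene lists (36 lists, 765 of 911 genes tested) were chosen with earlier results of these data known. A list among them is not reported here. Named by rule were up to 15 genes per direction with the largest differences (called, the same direction in 8 of 8 pairs, no overlap, mean signal of 500 or more in the higher line), up to 4 per list with the smallest p, genes fixed by name, up to 6 with the smallest p for drug dependence, genes past the 5-fold rule for 5-aza-dC, and members of runs. Other list members are said to be picked after their values were seen, or complete a group of 3 or fewer. XIST, TSIX and genes of chromosome Y were not named. Shares of CpG-rich promoters are not given, since 79.0% of tested genes had an entry in the promoter table and the share with an entry differed between groups. Alternatives were floors of 20 and 100, no filter and a stricter one, quantile normalization, no variance trend, no block, drug terms for the block, subsets of pairs, leaving out each pair, all probe sets of a gene, and other limits for switched genes.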

Additional observations from a re-analysis of the deposited data

Results flagged for a closer look

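For 10 named genes, the effect of a drug differed between the lines by the F test across all probe sets, with values given as the drug effect in HCT116 minus that in RKO (log2) and adjusted p from limma. With 5-aza-dC, the values were 6.81 for TKTL1 (F adjusted p = 0.00567), 4.55 for IFI27 (0.00567), 3.67 for SPARC (0.0192), 3.03 for PRF1 (0.00567), 2.93 for LXN (0.00567), 2.32 for BST2 (0.0212), 2.28 for KRT20 (0.0463) and 1.94 for PTPN7 (0.00605), a phosphatase of blood cells. With TSA, the values were -1.37 for CD55 (0.00567) and 0.96 for CCND1 (0.0212). The 8 values for 5-aza-dC were above 0, as were 17 of the values over all 25 genes past this test. None of the 25 genes passed it without the 5-aza-dC pair, and 23 passed it without the PJ-34/5-aza-dC pair. The RKO arrays labelled PJ-34/5-aza-dC and PJ-34 read against their labels, and the part of this in the values was not tested.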

How the results depend on the processing

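Under the alternatives run, the number of line differences stayed within 1.5 times, with 16744 to 18383 probe sets called in settings on all pairs, 13016 in the 4 pairs without 5-aza-dC, 13269 in the 4 pairs with it and 16665 to 17413 without any 1 pair, against 17922. In none of these settings was a probe set called in the opposite direction. Of 224 named genes called, 208 kept direction and call under every alternative, and 1 changed sign (DKK4, -0.27 in the pairs without 5-aza-dC). Of 1368 list counts, 1313 stayed within 1.5 times. The cause of the changes below was not tested. Drug dependence gave 39 probe sets, 0 with no filter, 0 without a variance trend, 67 without both pairs in which an RKO array read against its label, and 0 to 241 without any 1 pair. Switched genes fell from 60 and 23 to 14 and 7 under a limit of 50 and to 36 and 12 with an active signal of 1000. In the pairs without 5-aza-dC, genes higher in HCT116 numbered 5 for DNA replication, 3 for NF-kB targets, 3 for blood-lineage markers, 5 for colon differentiation, 8 for interferon-stimulated genes, 6 for mitosis and 3 for ribosomal proteins, and genes higher in RKO 5 for CDK inhibitors and cyclins, 3 for NF-kB targets and 5 for mitosis. In the pairs with 5-aza-dC, HCT116 had 3 NF-kB targets, 5 colon differentiation genes and 0 ribosomal protein genes, and RKO had 5 CDK inhibitors and cyclins, 4 DNA methylation genes and 6 replication genes. With no filter, HCT116 had 3 NF-kB targets, 2 blood-lineage markers and 7 ribosomal protein genes. Without a trend, HCT116 had 3 blood-lineage markers, 7 mitosis genes and 0 ribosomal protein genes. Quantile normalization left 0 ribosomal protein genes, a floor of 100 left 5 colon differentiation genes, and without both doubted pairs 2 blood-lineage markers and 1 ribosomal protein gene remained in HCT116. Without any 1 pair, the HCT116 counts were 3 to 7 for NF-kB targets, 3 to 5 for blood-lineage markers and 7 to 12 for ribosomal protein genes. Signs of uncalled genes near 0 changed. CDX2 was -0.053 with a floor of 100, -1.08 in the pairs without 5-aza-dC and -0.16 to 0.42 without any 1 pair. VIL1 was -0.15 with a floor of 20, -0.10 after quantile normalization, -0.52 in the pairs with 5-aza-dC, -0.023 without both doubted pairs and -0.092 to 0.25 without any 1 pair. PDGFD was -0.046 after quantile normalization, -0.22 in the pairs with 5-aza-dC and -0.15 to 0.14 without any 1 pair. SFRP1 (-0.30) and UCHL1 (-0.50) were below 0 in the pairs without 5-aza-dC, and SFRP4 was -0.0004 in the pairs with it and -0.022 to 0.29 without any 1 pair. Over all probe sets of a gene, the list medians were -0.016 for MAPK output, -0.0082 for drug handling and 1.08 for growth factor ligands. No paired analysis by replicate number was possible because every array has the replicate number 1, so arrays were paired by treatment label alone. Signals near the floor carry no order, which limits the reading of dim genes.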
